A study of Mus musculus with 9 samples.

Results

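The genes described here are the CXC chemokines and receptors that govern neutrophil traffic, namely the ligands Cxcl1, Cxcl2, Cxcl3, Cxcl5 and Cxcl12 and the receptors Cxcr1, Cxcr2 and Cxcr4. They were chosen by name, and every array probe that carries one of these gene names was kept, which gave 8 genes with 9 probes of 34797 gene names and 55681 probes. Cxcl12 had 2 probes and the other members had 1 probe each. The mean log2 level was 6 or more, the minimum used for calls, for all 9 probes. Cxcl5 reached it only through its lesion arrays, as its means were 5.44 in papilloma skin and 5.16 in tumor skin.

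CXC chemokines with the ELR motif, among them CXCL1, CXCL2, CXCL3 and CXCL5, bind CXCR2 and in part CXCR1, and draw neutrophils out of the blood into inflamed tissue. CXCL12 acts through CXCR4 and holds maturing neutrophils in the bone marrow, and aged neutrophils regain CXCR4. Neutrophils in tissue can themselves make CXCL2 and related ligands, which recruit further neutrophils, and inflamed epidermis is another known source of these ligands.

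Expression was measured with one-color Agilent arrays on Gr-1 bright neutrophils, sorted by flow cytometry from FVB/N mice whose skin received the carcinogen DMBA when they were 6 and 13 weeks old and, repeatedly each week, the tumor promoter PMA, from week 1 to between weeks 18 and 20. This treatment yields papillomas, some of which progress to cutaneous squamous cell carcinoma. The groups were papilloma (3 arrays), the skin beside papillomas (papilloma skin, 2 arrays), tumor (2 arrays) and the skin beside tumors (tumor skin, 2 arrays), so that the skin used for comparison had also received DMBA and PMA and no untreated skin was included. Each array held RNA pooled from several mice, and lesions were digested with dispase and DNase in addition to the collagenase used for skin, so that tissue and digestion cannot be told apart.

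All 10 neutrophil markers examined, among them Ly6g, S100a8 and S100a9, were well above background on all 9 arrays, and their summed log2 level lay between 19.6 and 20.1. Genes of other cells were also measured, with summed log2 levels of 12.0 to 15.6 for 12 keratinocyte genes, 12.5 to 15.7 for 8 fibroblast genes, 10.4 to 12.6 for 8 endothelial genes and 13.0 to 15.1 for 10 monocyte and macrophage genes. In such bulk samples fewer cells of a type and less RNA per cell cannot be told apart.

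Several libraries stood apart. Papilloma skin 1, tumor skin 1 and tumor 1 had a compressed signal range, with a spike-in slope of 0.678 to 0.894 against 1.04 to 1.06 on the other 6 arrays. In the table of log2 values deposited by the authors, the columns of papilloma skin 1 and tumor 1 ranked probes most like the scanner file of tumor 2 (Spearman's rho 0.923 and 0.946, against 0.587 and 0.825 with their own files). The columns of papilloma 2 and 3 ranked closest to each other's scanner files. Levels and differences below come from that table, and counts of calls are also given without the columns of papilloma skin 1 and tumor 1, with slide as a term and from the scanner files.

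Cxcl1, Cxcl2, Cxcl3 and Cxcl5 lie in 1 cluster on chromosome 5, between 90759298 and 90905938 of GRCm38.p6, and the RefSeq promoter table held the start regions of Cxcl1, Cxcl2 and Cxcl3 but no entry for Cxcl5. The 120 bases before each start are shown because these 3 neighbouring ligands carry the same NF-kappaB-like letters, which are in capitals, shortly before the start, while their levels in lesions differed in size of change. The sequences are of the plus strand of GRCm38.p6, 5′ to 3′.
Cxcl1 (chr5:90891125-90891244): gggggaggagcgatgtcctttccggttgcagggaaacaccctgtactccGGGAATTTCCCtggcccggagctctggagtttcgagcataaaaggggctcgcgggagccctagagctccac
Cxcl2 (chr5:90903779-90903898): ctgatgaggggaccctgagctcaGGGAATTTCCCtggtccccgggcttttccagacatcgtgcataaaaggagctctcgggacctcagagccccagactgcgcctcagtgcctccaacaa
Cxcl3 (chr5:90785981-90786100): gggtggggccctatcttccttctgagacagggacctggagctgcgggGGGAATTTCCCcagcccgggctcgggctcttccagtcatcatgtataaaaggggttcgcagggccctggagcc

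The capitals begin 71 bases before the start of Cxcl1, 97 before that of Cxcl2 and 73 before that of Cxcl3. The search was for GGGA followed by any 2 bases and TTCC, on both strands of the 250 bases before the start, and 397 of 32851 promoters held a match (1.21%). In these 3 promoters both strands matched at overlapping positions, and GGGAATTTCCC, the stretch around the match that all 3 share and thus chosen after the sequences were read, was in 14 of 32851 promoters (0.0426%). No match to these letters was present in this window of Cxcr1, Cxcr2, Cxcr4 or Cxcl12. A match is a description of the sequence only.

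The first question was which members differed between neutrophils of lesions and of the skin beside them. A probe was called when the Benjamini-Hochberg adjusted p of limma over all 55681 probes was at most 0.05, the absolute log2 difference at least 1 and the mean log2 level at least 6. In papilloma against papilloma skin, 3 of 9 member probes were called, those of Cxcl3, Cxcl5 and 1 of the Cxcl12 probes, all higher in papilloma, where 3.18% of all probes were called and 2.18% were called higher. In tumor against tumor skin, 3 of 9 were called, those of Cxcl2, Cxcl3 and Cxcl5, all higher in tumor, where 4.21% of all probes were called and 2.71% were called higher. Only the 28871 probes at the level minimum could be called, and they held all 1769 calls in papilloma and all 2346 in tumor. The members were all among them, so the shares over all probes are lower than the like-for-like ones. None of the receptor probes was called in either comparison. Arrays of papilloma lay above those of papilloma skin without overlap for 5 of 9 member probes, against 23.2% of all probes at the level minimum, and those of tumor above those of tumor skin for 5 of 9, against 32.5%. The median log2 difference over the 9 probes was 0.50 in papilloma and 0.79 in tumor, against 0.01 and 0.05 over all probes at the level minimum.

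**Figure D1:**
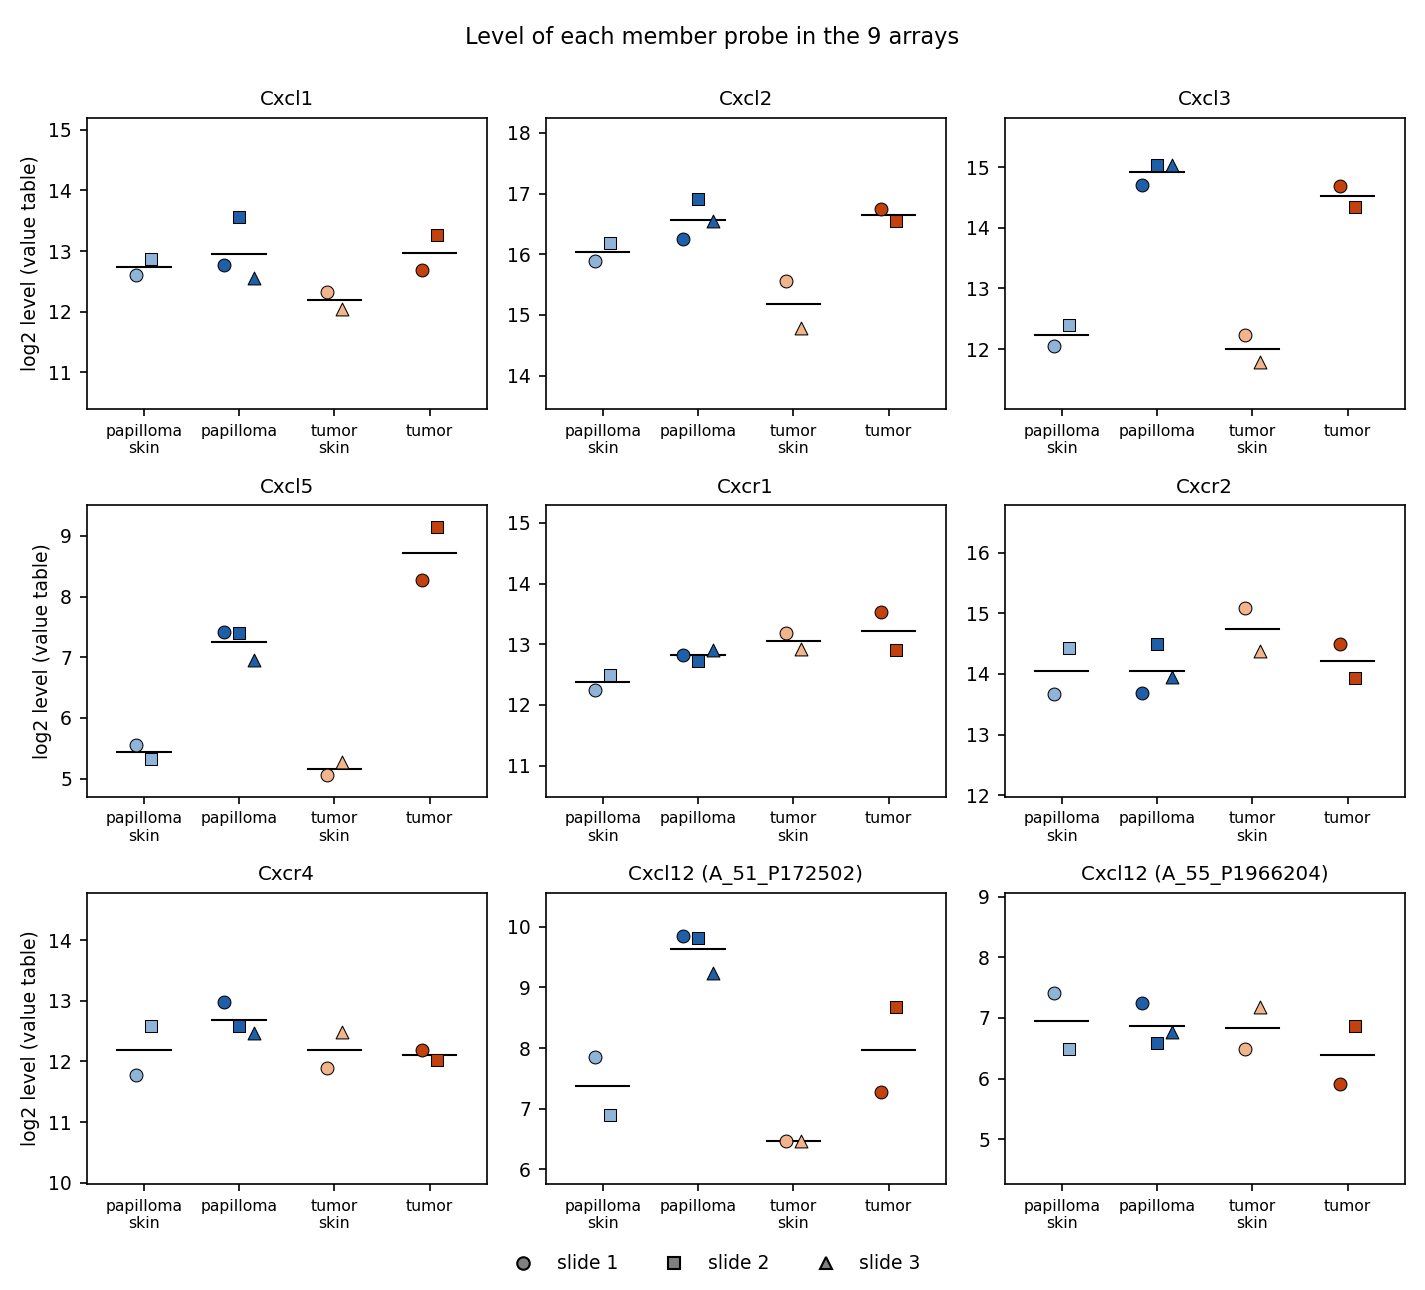
Log2 level of each of the 9 member probes in the value table, by group; every point is 1 array, its shape gives the slide, the bar is the group mean, and all panels span the same range of log2 units. The Cxcl3 and Cxcl5 points of both lesion groups lie above all skin points, whereas the Cxcr2 points of the groups overlap.

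Cxcl3, a neutrophil-attracting ligand, had log2 levels of 12.05 and 12.40 in papilloma skin, 12.23 and 11.79 in tumor skin, 14.70, 15.03 and 15.03 in papilloma, and 14.69 and 14.34 in tumor. All 5 lesion arrays were above all 4 skin arrays. The log2 difference was 2.69 ± 0.21 (SE, limma adjusted p = 0.00045) between papilloma and papilloma skin, a 6.47-fold higher level. Between tumor and tumor skin it was 2.51 ± 0.23 (SE, adjusted p = 0.00137), a 5.68-fold higher level. Within slide 1 the differences were 2.65 and 2.46, and within slide 2, which held no tumor skin, the papilloma difference was 2.63. Without the columns of papilloma skin 1 and tumor 1 both calls were kept, with differences of 2.52 and 2.33. The closest profiles by the root mean square difference over the 9 columns, each centred on its own mean, were those of Csf1 (0.230), Fmnl3 (0.243) and Ero1l (0.281), against an SD of 1.33 for Cxcl3 itself.

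Cxcl5, a ligand of CXCR2 known from epithelial cells, had log2 levels of 5.56 and 5.33 in papilloma skin, 5.06 and 5.27 in tumor skin, 7.42, 7.39 and 6.96 in papilloma, and 8.28 and 9.15 in tumor. The 2 tumor arrays were highest, the 3 papilloma arrays lay between, and no array of one of these lesion groups reached the other or the skin. The signal was well above background on all 5 lesion arrays, but on 1 of 2 arrays of each skin group only, the compressed ones. The fitted log2 difference was 1.82 ± 0.26 (SE, limma adjusted p = 0.00661) in papilloma and 3.55 ± 0.29 (SE, adjusted p = 0.00092) in tumor. With the dim skin arrays set at the lowest signal above background, the mean level was 3.35-fold higher in papilloma and 9.68-fold in tumor. These folds leave out the spread between arrays and are not lower limits. Without the columns of papilloma skin 1 and tumor 1 the differences were 1.93 and 3.99 and both were called. Without papilloma skin 2 the papilloma difference of 1.70 was no longer called (adjusted p = 0.0539), and since the mean log2 level of the probe was 6.71, a level minimum of 7 removed both calls.

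The summed log2 level of 12 keratinocyte genes was, like Cxcl5, higher in lesions than in the skin beside them. It was 12.0 to 12.7 in papilloma skin, 12.1 to 13.3 in tumor skin, 13.4 to 14.6 in papilloma and 14.0 to 15.6 in tumor. Of the 12 genes, 3 (Krt6a, Krt6b and Krt16) were called higher in papilloma and 4 (with Krt14) in tumor. Not every gene followed, as the mean of Krt15 went from 9.29 to 9.30 in papilloma and from 10.47 to 9.13 in tumor. Without the columns of papilloma skin 1 and tumor 1 the counts were 3 and 5, and with slide as a term 3 and 1. The part of keratinocyte RNA in the Cxcl5 result was not tested. The 3 genes whose profiles were closest to that of Cxcl5, by the same measure, were Adm (0.198), Sprr2j-ps (0.219) and Lce3b (0.229), against an SD of 1.39 for Cxcl5 itself.

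Cxcl2, the ligand also called MIP-2, had log2 levels of 15.88 and 16.18 in papilloma skin, 15.56 and 14.79 in tumor skin, 16.25, 16.91 and 16.55 in papilloma, and 16.74 and 16.55 in tumor. The lesion arrays lay above the skin arrays of the same stage, and tumor skin 2 was the lowest of all. The log2 difference of 1.48 ± 0.29 (SE) between tumor and tumor skin was called (limma adjusted p = 0.0204), a 2.78-fold higher level. That call was lost without tumor skin 2 (1.09, adjusted p = 0.0713), without tumor 1 (1.38, adjusted p = 0.0901) or without tumor 2 (1.57, adjusted p = 0.0945). It was also lost without the columns of papilloma skin 1 and tumor 1 (1.38, adjusted p = 0.110) and with slide as a term (1.24, adjusted p = 0.161). In papilloma the log2 difference was 0.54 with a 95% confidence interval from -0.07 to 1.15, and was not called.

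Cxcl1, the ligand also called KC, had log2 levels of 12.60 and 12.87 in papilloma skin, 12.33 and 12.04 in tumor skin, 12.78, 13.55 and 12.55 in papilloma, and 12.68 and 13.26 in tumor. Papilloma overlapped its skin, while both tumor arrays were above both tumor skin arrays. The log2 difference was 0.23 (95% confidence interval -0.48 to 0.93) in papilloma and 0.79 (0.02 to 1.56; limma adjusted p = 0.176) in tumor, and neither was called.

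**Figure D2:**
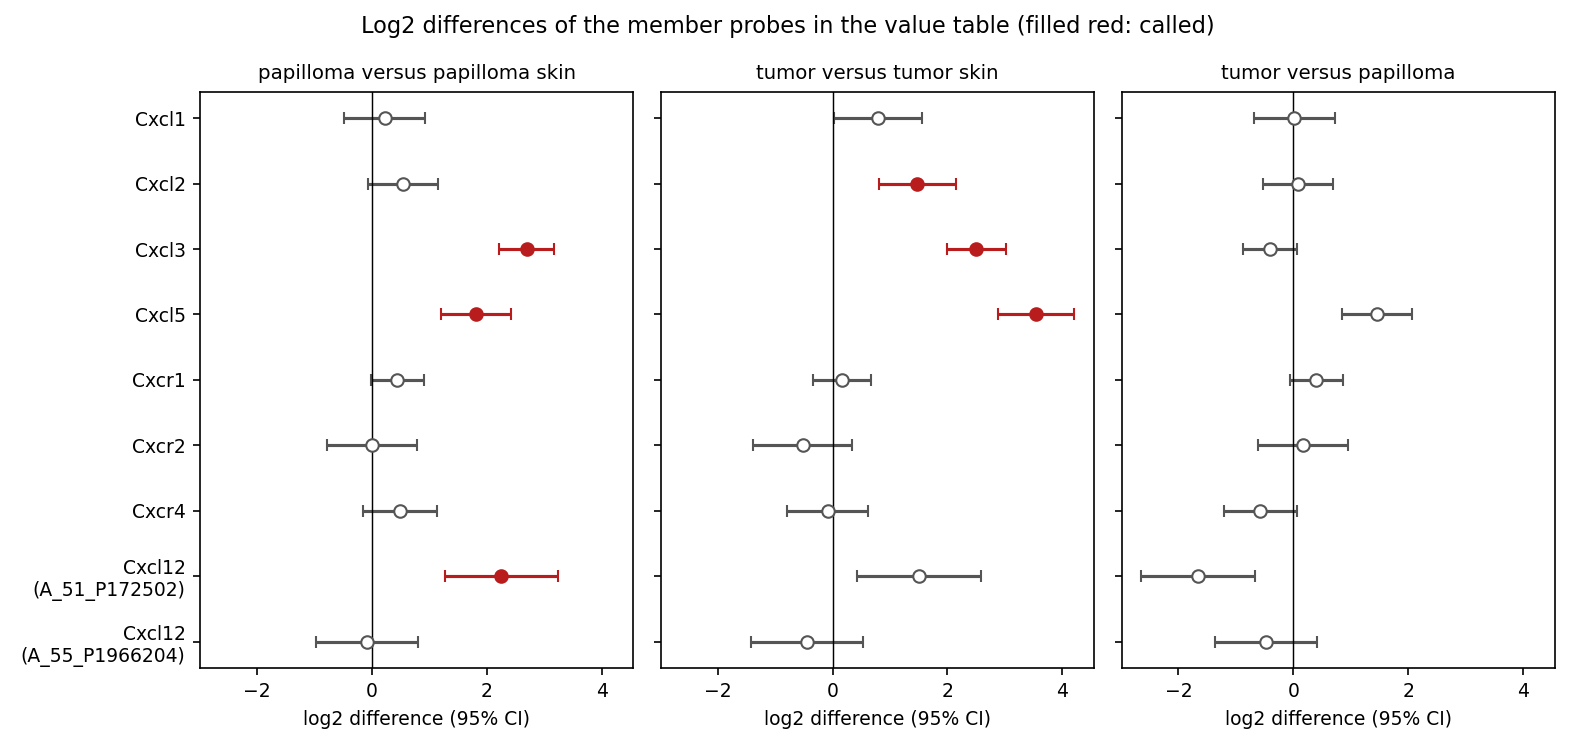
Log2 difference of each member probe with its 95% confidence interval from limma for papilloma against papilloma skin, tumor against tumor skin, and tumor against papilloma; filled red points were called. Called probes are 3 ligand probes in each of the first 2 panels and none in the third.

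Cxcr2, the main receptor of the ELR ligands on mouse neutrophils, had log2 levels of 13.66 and 14.43 in papilloma skin, 15.09 and 14.37 in tumor skin, 13.69, 14.49 and 13.95 in papilloma, and 14.49 and 13.94 in tumor. The groups overlapped in each comparison of lesion with skin. The log2 difference had a 95% confidence interval from -0.79 to 0.78 in papilloma. In tumor the difference was -0.52, with an interval from -1.38 to 0.34. Changes within these intervals remain possible with these arrays.

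Cxcr1, the second receptor of this class, had log2 levels of 12.25 and 12.50 in papilloma skin, 13.18 and 12.92 in tumor skin, 12.82, 12.72 and 12.91 in papilloma, and 13.53 and 12.91 in tumor. Papilloma skin was below all other arrays. The log2 difference was 0.45 (95% confidence interval -0.02 to 0.91) in papilloma, 0.17 (-0.34 to 0.68) in tumor and 0.68 (0.17 to 1.19; limma adjusted p = 0.139) between tumor skin and papilloma skin. None of these was called, and the tumor difference was below 0 without the columns of papilloma skin 1 and tumor 1 and in all 5 scanner settings, down to -1.06.

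Cxcr4, the receptor of CXCL12, had log2 levels of 11.78 and 12.59 in papilloma skin, 11.90 and 12.48 in tumor skin, 12.98, 12.58 and 12.47 in papilloma, and 12.18 and 12.03 in tumor. Lesion and skin overlapped at both stages, with log2 differences of 0.50 (95% confidence interval -0.15 to 1.14) and -0.08 (-0.79 to 0.62). Within slide 1 the papilloma difference was 1.20 and within slide 2 it was -0.00.

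Cxcl12 encodes the ligand of CXCR4 and is known from stromal and endothelial cells. Its 2 probes lie at different transcript ends, at mm9 chr6:117131227-117131286 and chr6:117125026-117125085. The first 30 bases of each 60-base probe are shown because the probes gave different results.
A_51_P172502: aggagaaggcagcttcctatatgcagcgtg
A_55_P1966204: gctgtaaacctcctaccgtatgtgggaatt

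Probe A_51_P172502 of Cxcl12 had log2 levels of 7.86 and 6.89 in papilloma skin, 6.47 and 6.47 in tumor skin, 9.85, 9.82 and 9.23 in papilloma, and 7.27 and 8.68 in tumor. Papilloma was highest, and tumor skin 2 was not well above background. The log2 difference of 2.26 ± 0.43 (SE) between papilloma and papilloma skin was called (limma adjusted p = 0.0203), a 4.78-fold higher level. That call was lost without papilloma skin 2 (1.78, adjusted p = 0.133), papilloma 1 (2.15, adjusted p = 0.0612) or papilloma 2 (2.16, adjusted p = 0.0637), and with slide as a term (2.39, adjusted p = 0.0867). In tumor the difference was 1.50 ± 0.47 (SE, adjusted p = 0.0835) and was not called, but it was called without the columns of papilloma skin 1 and tumor 1 (2.21, adjusted p = 0.0289).

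Probe A_55_P1966204 of Cxcl12 had log2 levels of 7.42 and 6.48 in papilloma skin, 6.49 and 7.18 in tumor skin, 7.25, 6.59 and 6.76 in papilloma, and 5.91 and 6.87 in tumor. The groups overlapped, and the log2 differences were -0.08 (95% confidence interval -0.97 to 0.81) and -0.44 (-1.42 to 0.53). With the median over both probes Cxcl12 was not called in papilloma (1.09, limma adjusted p = 0.149).

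Endothelial genes were, by summed level, highest in papilloma, as was the first Cxcl12 probe. The summed log2 level of 8 endothelial genes was 10.6 to 11.1 in papilloma skin, 10.4 to 10.8 in tumor skin, 12.0 to 12.6 in papilloma and 10.8 to 11.3 in tumor. Of them 5 (Cdh5, Cldn5, Esam, Emcn and Pecam1) were called higher in papilloma and 2 (Cdh5 and Esam) in tumor. Without the columns of papilloma skin 1 and tumor 1 these counts were 3 and 2, and with slide as a term 2 and 0. Not every endothelial gene followed in tumor, as the mean of Kdr went from 9.76 in tumor skin to 9.65. The summed endothelial levels also overlapped there, at 10.79 in tumor 1 and 10.85 in tumor skin 2. The summed level of 8 fibroblast genes was 13.6 to 14.7 in papilloma skin and 15.2 to 15.7 in papilloma, with 1 gene, Col6a1, called higher and with group means higher in papilloma for 4 genes and lower for 4. In tumor skin it was 13.0 to 13.2 and in tumor 12.5 to 13.9, with Col6a1 called higher and Dcn lower. Without both columns 4 fibroblast genes were called higher in papilloma and 2 in tumor, and with slide as a term 1 and 0. The part of these cells in the Cxcl12 result was not tested. The profiles closest to Cxcl12 were those of Flt1 (root mean square difference 0.238), Sema3f (0.251) and Mmrn2 (0.251), against an SD of 1.30 for the Cxcl12 probe.

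**Figure D3:**
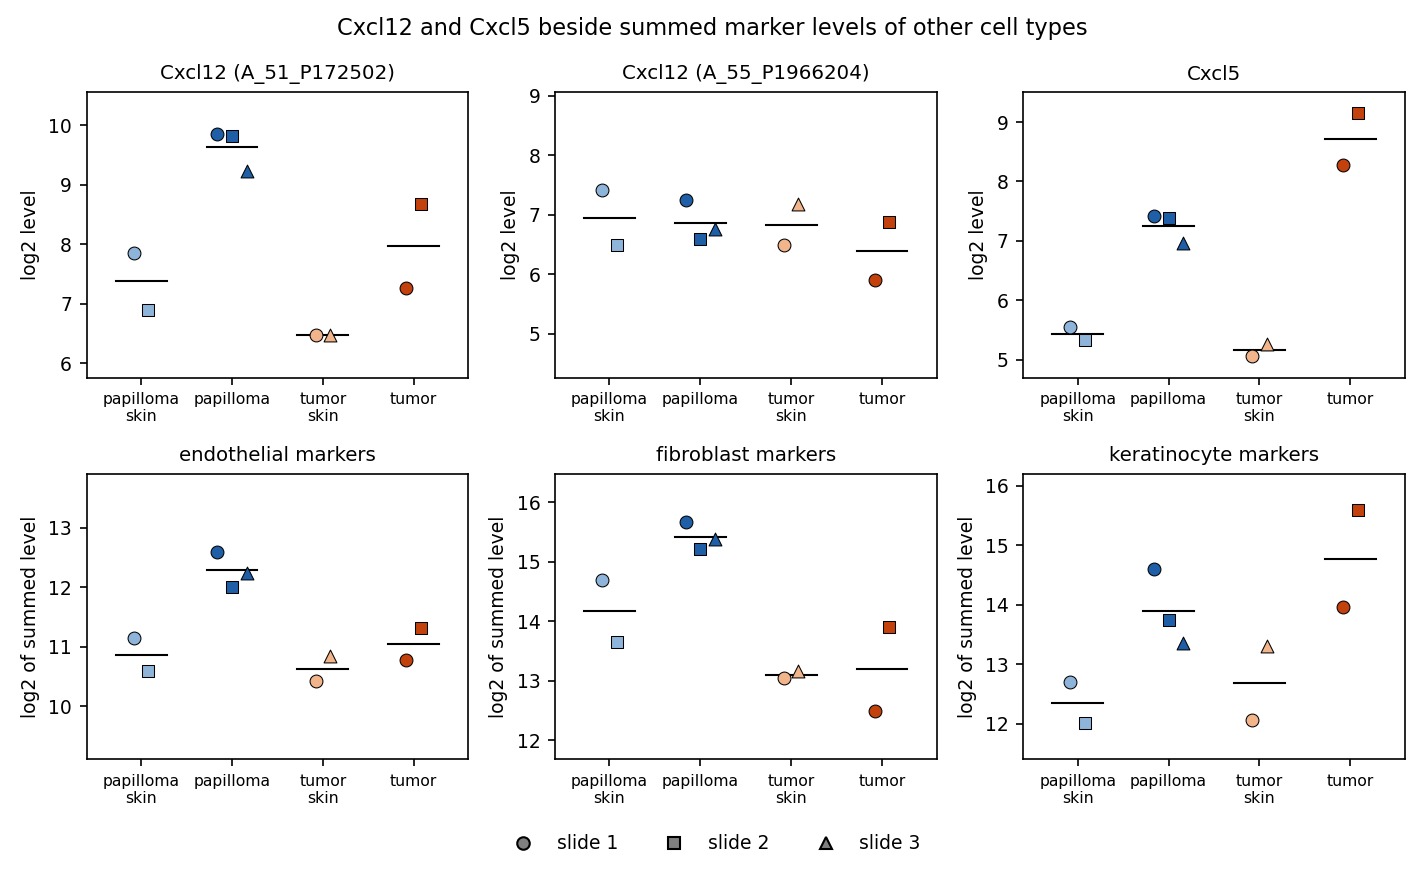
Log2 level of both Cxcl12 probes and of Cxcl5, above the log2 of the summed level of endothelial, fibroblast and keratinocyte genes, by group; points are arrays, shapes are slides and bars are group means. Papilloma is highest for Cxcl12 probe A_51_P172502 and for the summed levels of endothelial and fibroblast genes, and the tumor mean is highest for Cxcl5 and keratinocyte genes.

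The second question was whether members differed between tumor and papilloma. With limma 0 of 9 member probes were called, where 0.447% of all probes were called, and 2 of 9 had an unadjusted p under 0.05, as had 14.4% of all probes. The largest of these differences were those of Cxcl12 probe A_51_P172502, at -1.66 (95% confidence interval -2.65 to -0.67; adjusted p = 0.160), and Cxcl5, at 1.46 (0.85 to 2.06; adjusted p = 0.0619). Cxcl3 differed by -0.41 (-0.88 to 0.07) and Cxcr4 by -0.57 (-1.21 to 0.07). Cxcl1 and Cxcl2 were close in both lesions, with differences of 0.02 (-0.69 to 0.72) and 0.08 (-0.53 to 0.69). Within slides 1 and 2 the Cxcl5 difference was 0.86 and 1.76.

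The skin groups were compared in the same way. With limma 0 of 9 member probes were called between tumor skin and papilloma skin, where 0.26% of all probes were called, and 2 of 9 had an unadjusted p under 0.05, as had 22.7% of all probes. These were Cxcr1, described above, and Cxcl2, which was lower in tumor skin by a log2 difference of -0.86 (95% confidence interval -1.53 to -0.19; adjusted p = 0.150). The skin arrays of the stages did not overlap for 5 of 9 probes, 1 higher in tumor skin, against 20.3% of probes at the level minimum, and 4 lower, against 25.4%. In quantile-normalized scanner files 2 were higher without overlap and 0 lower. The share over all probes was not computed for those files, so these 2 counts cannot be weighed.

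The difference between the lesion effects of both stages was tested as a contrast of its own. With limma 0 of 9 member probes passed, where 0.0269% of all probes passed, and 2 of 9 had an unadjusted p under 0.05, as had 14.7% of all probes. The effect in tumor exceeded that in papilloma by 1.73 log2 units for Cxcl5 (95% confidence interval 0.84 to 2.63; adjusted p = 0.153) and by 0.94 for Cxcl2 (0.03 to 1.85; adjusted p = 0.328). For Cxcl3 the difference was -0.19 (-0.89 to 0.51). Thus a Cxcl2 or Cxcl12 call in one stage and not in the other was not shown to differ between the stages.

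Genes around the members were examined in 4 lists with the median over the probes of a gene. Of all 34797 gene names, 2.43% were called higher and 1.17% lower in papilloma, and 2.75% higher and 1.61% lower in tumor, and 21.8% and 27% had an unadjusted p under 0.05. Calls over all gene names numbered 1251 in papilloma and 1516 in tumor. With slide as a term they numbered 766 and 203, and without the columns of papilloma skin 1 and tumor 1 818 and 1283. The counts of the marker lists have the same background. In the list of 12 inducers and feedback genes of CXC chemokine expression, 5 rose in papilloma and 3 in tumor, and none fell. Without the columns of papilloma skin 1 and tumor 1, 1 was called in papilloma, Il1a, and 4 in tumor, and with slide as a term 4 and 1. Il1a, which encodes the cytokine interleukin-1 alpha, rose in both, by 3.21 ± 0.29 and 3.34 ± 0.32 log2 units (SE, limma adjusted p = 0.00077 and 0.00146). Its levels were 8.47 and 9.07 in papilloma skin, 8.58 and 7.97 in tumor skin, 11.67, 12.44 and 11.82 in papilloma, and 11.62 and 11.60 in tumor, so that lesion and skin did not overlap. Il1b differed by 0.11 and 0.18 and was not called.

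Csf3, which encodes the neutrophil growth factor G-CSF, rose by 2.07 ± 0.27 in papilloma (SE, limma adjusted p = 0.0038), with levels of 6.48 and 7.12 in papilloma skin and 8.51, 9.09 and 9.02 in papilloma. Il6 rose in both lesions, by 1.57 and 1.44. It was lower in tumor than in papilloma by a difference of -2.12 (limma adjusted p = 0.0237). No gene was called in that comparison without the columns of papilloma skin 1 and tumor 1 or with slide as a term. The skins differed in the same direction, with a mean Il6 level of 6.19 in tumor skin against 8.18 in papilloma skin. Tnf rose by 1.31 and Zfp36, whose product promotes decay of such messenger RNAs, by 1.03, both in papilloma. Without both columns Csf3, Il6, Tnf and Zfp36 were not called in papilloma, with differences of 1.75, 1.78, 1.04 and 1.06 (limma adjusted p = 0.0542, 0.0541, 0.207 and 0.0590). Il17a, whose product induces CXC chemokines in epithelium, had levels of 8.21 and 9.64 in tumor, while neither tumor skin array was well above background. Its mean level in tumor was 10.2-fold higher with tumor skin set at the lowest signals above background. This fold leaves out the spread between arrays (limma adjusted p of the fit 0.00824, and 0.0956 with slide as a term).

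The other 15 members of the CXC family had 0 calls in papilloma with limma, with 4 at an unadjusted p under 0.05, and 3 higher in tumor. Ppbp, the precursor of platelet basic protein and CXCL7, had log2 levels of 5.28 and 5.30 in tumor skin, of which 1 of 2 was well above background, and of 9.71 and 11.95 in tumor. With the dim tumor skin array set at the lowest signal above background, its mean level in tumor was 38.9-fold higher. The spread between arrays is left out of this fold (limma adjusted p of the fit 0.0039). Cxcr6 rose by 1.74 and Cxcl10, a ligand of CXCR3, by 1.15. These 3 were also called without the columns of papilloma skin 1 and tumor 1, as was Ppbp in papilloma (2.48, adjusted p = 0.0183), and none with slide as a term. Pf4, like Ppbp a platelet gene, was not called in either comparison.

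Of 10 other chemoattractant receptors 0 were called with limma in papilloma and 0 in tumor, and 6 and 5 had an unadjusted p under 0.05. Fpr1, a formyl peptide receptor, differed by -0.14 (95% confidence interval -0.72 to 0.45) in papilloma and -0.42 (-1.06 to 0.22) in tumor. Others moved more and in both directions. The mean of Ccr2 went from 11.24 to 8.96 in papilloma and from 9.90 to 7.89 in tumor. That of Ptafr went from 10.87 to 11.37 and from 10.40 to 11.18. The median log2 difference of the list was -0.10 and -0.12. With slide as a term Ccr2 in papilloma was called lower.

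Of 18 genes of signalling downstream of the receptors, 1 fell in papilloma, and 1 rose and 3 fell in tumor. Gng2, a G protein gamma subunit, fell in both, by 1.32 and by 1.13 (limma adjusted p = 0.0084 and 0.0212). Adrbk1, which encodes the receptor kinase GRK2, fell by 1.80 in tumor, with levels of 14.76 and 14.55 in tumor skin and 13.07 and 12.65 in tumor. Rac2, a small GTPase of neutrophil migration, fell by 1.13, and Grk5, another receptor kinase, rose by 1.37 ± 0.13 (SE, adjusted p = 0.00136). Without the columns of papilloma skin 1 and tumor 1 these 4 genes were called in tumor and Gng2 and Adrbk1 in papilloma, while with slide as a term Grk5 in tumor was the only call of the list. The median log2 difference of the list was -0.35 in papilloma and -0.57 in tumor, against -0.01 over all genes in both. Beside these falls, 4 of 10 neutrophil markers (Camp, Ngp, Ltf and Mmp8) were lower in papilloma and 5 in tumor, Ly6g being the fifth, and with slide as a term these counts were 3 and 2. Of 6 eosinophil genes 4 were lower in each lesion, and their summed log2 level went from 13.3 to 13.8 in papilloma skin and 12.5 to 12.7 in tumor skin to 10.1 to 10.6 in papilloma and 9.75 to 10.3 in tumor. Of 10 monocyte and macrophage genes 2, Emr1 and Ly6c1, were called lower in each lesion and 0 higher. Their median log2 difference was -0.54 in papilloma and -0.40 in tumor, while group means of Cd68 and C1qa were higher in both lesions. Without the columns of papilloma skin 1 and tumor 1 only Emr1 was called in each. With slide as a term Ccr2, Emr1 and Ly6c1 were called lower in papilloma, and Emr1 in tumor. The part of these cells in the pathway results was not tested.

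**Figure D4:**
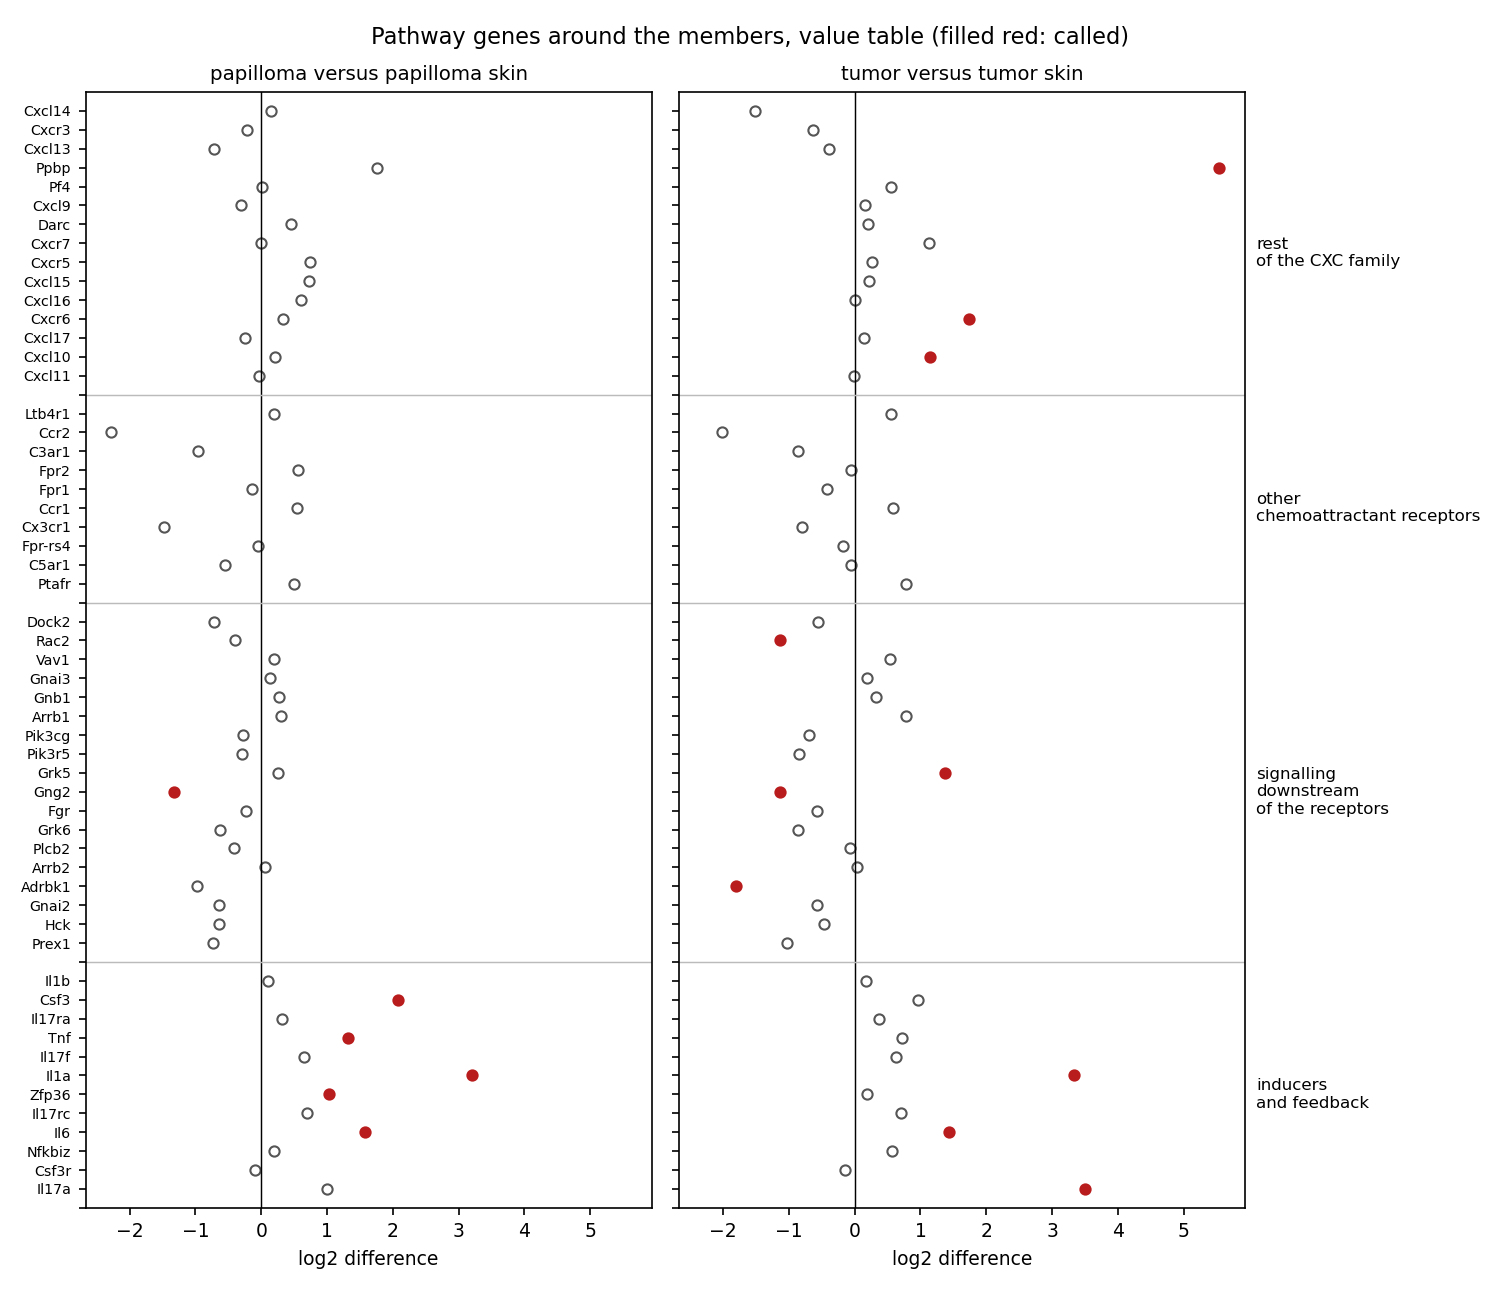
Log2 difference of each gene of the 4 pathway lists for papilloma against papilloma skin (left) and tumor against tumor skin (right), with the median over probes as the gene value; filled red points were called. The inducers hold 5 called genes in papilloma and 3 in tumor, all above 0, and the other chemoattractant receptors hold none.

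The scanner files, normalized anew in 5 ways, gave 0 calls of a member and of any probe with limma in both comparisons of lesion with skin, and gene medians of the quantile-normalized files gave 0 calls of any gene. Between 3 and 5 of 9 member probes had an unadjusted p under 0.05 in papilloma, as had 9.01% to 23.5% of all probes, and 2 or 3 in tumor, as had 1.58% to 14.2%. In quantile-normalized scanner files the Cxcl3 level of papilloma skin 1 was 8.57 against 12.76 in papilloma skin 2, whereas the value table gave 12.05 and 12.40. The differences of Cxcl3, Cxcl5 and Cxcl12 probe A_51_P172502 between lesion and skin were above 0 in all 14 alternatives. For Cxcl3 they ranged from 2.16 to 4.64 in papilloma and from 1.94 to 2.98 in tumor. For Cxcl5 they ranged from 1.35 to 4.60 and from 2.38 to 7.11. For that Cxcl12 probe they ranged from 1.09 to 4.16 and from 0.53 to 2.95. The low ends for Cxcl12 are those of the gene medians, which take both its probes together.

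**Figure D5:**
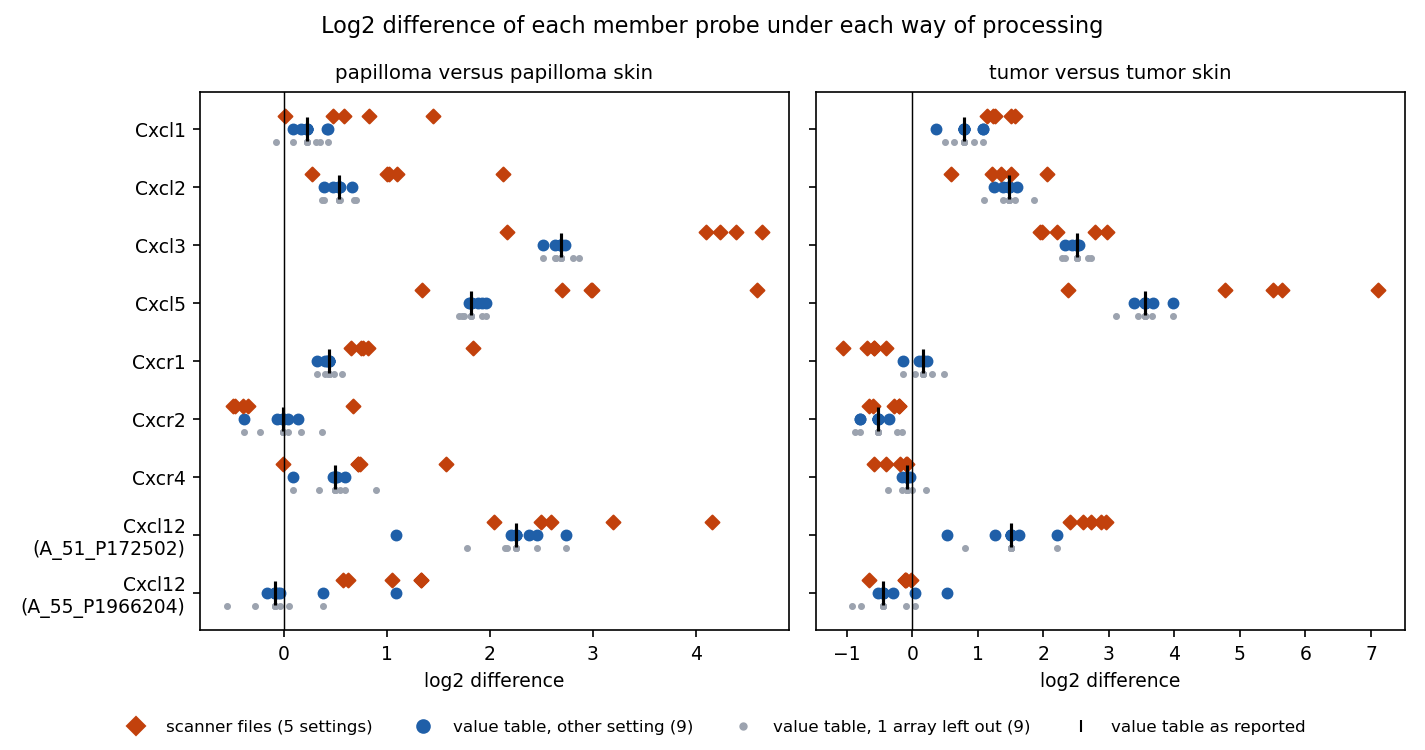
Log2 difference of each member probe for papilloma against papilloma skin and tumor against tumor skin under each way of processing; black bars are the values as reported, circles other settings of the value table, small grey points the table with 1 array left out, and diamonds the scanner files. All points of Cxcl3 and Cxcl5 are above 0, and the scanner files spread most. The gene medians enter the rows of both Cxcl12 probes with the same value.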

How the data were processed

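Neutrophil RNA of 9 samples was hybridized to one-color Agilent arrays on 3 slides. Per the file headers the scanner files deposited by the authors hold background-subtracted fluorescence intensity per spot with flags for signal well above background, not scaled between arrays. A second file from the authors gives deposited log2 values of 55681 probes. Their methods name limma's quantile normalization and a ComBat step against chip effects, and which of these the values went through is not given in the sources used here. Where ComBat was applied, a fit without slide overstates the residual degrees of freedom, which were 5, and adjusted p-values are then too small.

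The value table was fitted with limma (lmFit and eBayes) over all probes, 4 groups and 9 arrays, with 5 contrasts, after the script had been tested on simulated data. Groups came from the labels, arrays were the replicates, and p-values measure the spread between pooled samples. Groups of 2 or 3 arrays limit the precision. The 14 alternatives covered scanner files (log2 of the processed signal, scaling, and normexp with offset 50), slide, replicate block, level minimum, dim probes, gene medians and the variance model, and each array was left out in turn. Pathway and marker genes were refitted without 2 columns, with slide as a term and from scanner files, a choice made after seeing the data. ComBat itself was not rerun.

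All probes of the members are named. Of each of 4 pathway lists at most 4 called genes with the largest change were named per comparison. Il1b, Pf4, Fpr1, Zfp36, Ccr2 and Ptafr were named besides, after their values were seen. The 3 genes most like a member are named for Cxcl3, Cxcl5 and Cxcl12, whose SD over the arrays was above 1. Members, pathway lists and 8 marker lists were chosen with earlier results of these data known. Lists for T cells (1 of 7 genes called, lower in tumor) and mast cells (0 of 6 with limma, 1 and 2 at an unadjusted p under 0.05) gave no further calls in lesion against skin. All 9 probes matched the RefSeq table by accession and symbol, and 7 of 8 members had a promoter entry. Fits were run with limma 3.58.1 in R 4.3.3, and tables and plots were made with pandas 2.3.3 and matplotlib 3.10.9 in Python 3.11.15.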

Additional observations from a re-analysis of the deposited data

How the results depend on the processing

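In papilloma against papilloma skin and in tumor against tumor skin, 3 of 9 member probes were called in each. Both counts were 0 under all 5 settings of the scanner files (quantile normalized without and with slide as a term, scaled to the 75th percentile, normexp, and 6 arrays without the compressed ones), where the count over all probes was 0 too; the cause was not tested. Leaving out 1 array in turn gave 1 to 3 called probes in papilloma, with 1 without papilloma skin 2, where Cxcl3 alone was called, and 2 to 3 in tumor. With slide as a term the value table gave 2 and 2 (Cxcl12 in papilloma and Cxcl2 in tumor lost), with a level minimum of 7 it gave 2 and 2, and with gene medians 2 and 3. Without the columns of papilloma skin 1 and tumor 1 it gave 3 and 3, but in tumor Cxcl12 took the place of Cxcl2. Over all probes, slide as a term gave 981 calls in papilloma and 209 in tumor, against 1769 and 2346. The counts of 0 in the other 3 contrasts were 0 under every alternative. Over the single differences 832 values kept their direction and call or moved by less than the replicate SD, 156 moved more, 45 lost a call, 2 gained one and no called value changed sign.

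Correlations between groups of arrays with the same replicate number were -0.957 to 0.275 for replicate 1 and -0.704 to 0.376 for replicate 2 in the value table, and -0.04 to 0.715 and 0.02 to 0.715 in quantile-normalized scanner files, where 3 of 6 pairs of each number were over 0.1. The correlations were of deviations from the group mean, which mirror each other in groups of 2 arrays. For pairs of such groups both numbers therefore give the same value. In the scanner files these were the only pairs over 0.1, so the correlations cannot decide on pairing. The numbers were not taken as pairing. All arrays of replicate 1 lay on slide 1. With the replicate block, 2 and 2 member probes were called (Cxcl3 and Cxcl5 in each), and Cxcl12 in papilloma (adjusted p = 0.103) and Cxcl2 in tumor (adjusted p = 0.101) were not.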
